A study of Mus musculus with 10 samples.

Results

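Nkx2-5, Myocd, Mef2c, Gata4, Gata6, Tbx5, Tbx20, Hand1 and Hand2, the core transcription factor genes of heart muscle formation, were followed on arrays of mouse CGR8 embryonic stem (ES) cells and of cells differentiated from them. Members were chosen by gene name: every probe set that the platform annotation assigns to 1 of these genes alone was taken. This gave 23 of 45037 probe sets, for all 9 genes of 18193 that the annotation names. CGR8 is a single ES line of strain SV129, and every group came from it. The 10 arrays formed 4 groups. ES cells given EBIO at 1 mM over 3 days (n = 3) were set against untreated ES cells of the same passages, 25, 26 and 27 (n = 3). Cells kept 5 days as embryoid bodies and a further 10 days with EBIO (n = 2, dose not in the labels) were set against cells cultured equally long without it (n = 2). EBIO opens small- and intermediate-conductance calcium-activated potassium channels. The differentiated cultures were mixtures of cell types. A change in the number of cells of a type and a change in RNA per cell, up or down, therefore cannot be told apart.

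The members work as a mutually reinforcing network. Nkx2-5 is a homeodomain factor, Gata4 and Gata6 are zinc finger factors, Tbx5 and Tbx20 are T-box factors, Hand1 and Hand2 are basic helix-loop-helix factors and Mef2c is a MADS-box factor. Myocd binds no DNA by itself and lends its activation domain to serum response factor. Together they switch on sarcomere, calcium handling and natriuretic peptide genes. Outside heart muscle, Gata4 and Gata6 also act in endoderm, Mef2c in macrophages and endothelium, Hand1 in trophoblast, and Tbx20, Hand2 and the Gata factors in fibroblasts and mesothelium.

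In differentiated cells 7 of the 9 genes rose with EBIO, on every one of their 18 probe sets. Nkx2-5, Myocd, Tbx5 and Tbx20 rose most, by 1.69 to 3.95 on the log2 scale. Hand2, Mef2c and Gata4 rose by 0.63 to 1.28, and none of the 5 probe sets of Gata6 and Hand1 was called. In the ES cell groups 3 of the 23 probe sets rose, 2 of Tbx20 and 1 of Gata6, all near or under the array medians. The values are the authors' log2 RMA values. A call is an adjusted p under 0.05 in limma over all 45037 probe sets, none of which was filtered out. By that rule 19.5% of all probe sets were higher with EBIO in differentiated cells and 15.5% lower. In ES cells the shares were 10.9% and 9.21%.

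**Figure D1:**
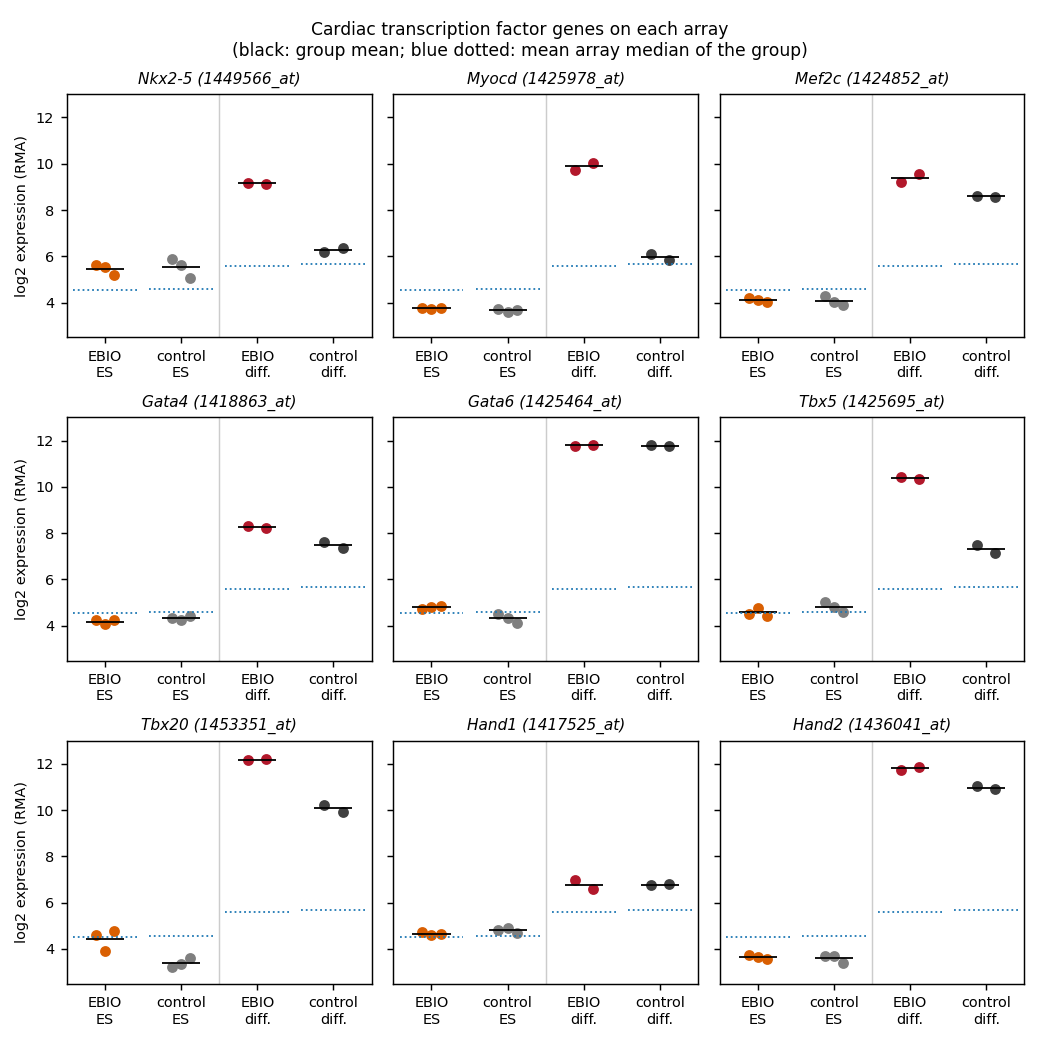
Log2 expression of each member's most intense probe set (vertical axis) on each of the 10 arrays, by group. Points are arrays, black bars group means and dotted lines the mean array median of the group; Nkx2-5 lies at 9.18 and 9.13 on the EBIO arrays of differentiated cells, above 6.19 and 6.38 on their control arrays, while Gata6 reads 11.78 and 11.81 against 11.79 and 11.76.

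By their value distributions, the arrays of the 2 stages appear to have been normalized as separate sets. Array medians were 4.52 to 4.55 in EBIO and 4.55 to 4.62 in control ES cells, and 5.59 to 5.61 in EBIO and 5.66 to 5.68 in control differentiated cells. A value was therefore compared with EBIO and control arrays of its own stage; across stages only the percentile of a probe set on its array is given. RMA compresses the low end of its scale, so a rise that starts under the array median may be understated. The 8 pluripotency markers averaged 7.70 to 8.11 in EBIO and 11.03 to 11.29 in control ES cells (mean log2 level over the list, range over arrays). In differentiated cells they averaged 5.75 to 5.96 with EBIO and 6.0 to 6.10 without. The 8 cardiomyocyte markers averaged 13.03 to 13.06 with EBIO and 9.39 to 9.53 without in differentiated cells, all 8 above the array median on every array of both groups.

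Nkx2-5, the homeobox gene whose product marks heart progenitors and working heart muscle, has 1 probe set. It measured 9.18 and 9.13 in differentiated cells with EBIO, against 6.19 and 6.38 without. The groups lay 2.76 apart, with the controls little above their array medians. The difference was 2.87 ± 0.10 (SE; 95% interval 2.62 to 3.12), 7.32-fold (adjusted p = 1.6e-05, limma, n = 2 each). In ES cells it read 5.62, 5.55 and 5.19 with EBIO and 5.89, 5.61 and 5.07 in controls, with the passage-27 array lowest in both groups. These groups overlapped, and the difference was -0.07 (95% interval -0.59 to 0.45).

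Nkx2-5 and Hand2 both rose, by a large and a small amount, and the 250 bases before their RefSeq starts are shown to set their promoters side by side. Capitals mark matches, on either strand, to the motifs of the members' families: AGATAA and TGATAA for GATA factors, TNAAGTG for NK2 factors, AGGTGT for T-box factors, CATCTG for HAND factors, the MEF2 box (CTA, any 4 bases, TAG), and the CArG box of serum response factor. TATAAA was searched too. The windows are chr17:26841566-26841815 (minus strand) and chr8:57320733-57320982 (plus strand) of GRCm38.p6, 5′ to 3′.
Nkx2-5: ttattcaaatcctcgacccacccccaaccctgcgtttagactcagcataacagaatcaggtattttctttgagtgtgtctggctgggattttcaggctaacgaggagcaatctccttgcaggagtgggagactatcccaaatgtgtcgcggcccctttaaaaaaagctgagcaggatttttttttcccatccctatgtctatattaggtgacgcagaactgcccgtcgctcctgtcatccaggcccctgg
Hand2: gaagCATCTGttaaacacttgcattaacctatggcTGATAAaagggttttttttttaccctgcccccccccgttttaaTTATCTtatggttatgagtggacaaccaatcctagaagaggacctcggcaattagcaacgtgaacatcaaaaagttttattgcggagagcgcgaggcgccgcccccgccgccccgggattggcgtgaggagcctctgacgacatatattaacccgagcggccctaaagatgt
Hand2 holds 1 AGATAA, read here on the other strand as TTATCT, at 172 to 167 bases before the start, 1 TGATAA at 215 to 210 and 1 CATCTG at 246 to 241; none of them overlap. The Nkx2-5 window holds no match, and neither does that of Tbx20. Of the 3 Mef2c starts 1 has AGGTGT, another CATCTG, and 2 have TATAAA, at 107 to 102 and 22 to 17 bases before the start. Among 32841 promoter windows of this length 9.99% hold AGATAA, 7.94% TGATAA, 14.4% CATCTG and 11.8% AGGTGT. Of the same windows 10.1% hold TNAAGTG, 3.2% the MEF2 box, 1.47% a CArG box and 12.4% TATAAA. These are matches of letters, not measured binding. Myocd, Gata4, Gata6, Tbx5 and Hand1 had no window in the promoter set used and were not searched.

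Myocd, the coactivator of serum response factor in heart and smooth muscle, had the largest rise of the 23 probe sets. Probe set 1425978_at measured 9.74 and 10.04 in differentiated cells with EBIO, against 6.08 and 5.82 without. It rose by 3.95 ± 0.14 (SE), 15.4-fold, with an adjusted p of 1.8e-05 in limma (n = 2 each), and 99.4% of all probe sets had a smaller absolute difference. The other probe set, 1425808_a_at, read 6.45 and 7.07 with EBIO and 4.67 and 4.65 without. Its controls lay under their array medians, so that its rise of 2.10 ± 0.20 (adjusted p = 0.00060, limma) may be understated. In ES cells both were under the array median on all 6 arrays, at no more than 4.22. Their differences there were 0.08 and -0.10, not called (adjusted p = 0.62 and 0.65).

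Mef2c, a MADS-box factor of all muscle types and of some blood and vessel cells, rose on all 5 of its probe sets, by amounts close to each other. The most intense, 1424852_at, measured 9.23 and 9.56 in differentiated cells with EBIO, against 8.60 and 8.57 without. The difference was 0.81 ± 0.13 (SE; adjusted p = 0.0044, limma), 1.76-fold. The other 4 rose by 0.63 to 0.84, and the EBIO arrays lay above the control arrays for each, by at least 0.48. The call of 1451507_at (0.68) was lost without control array 1 (adjusted p = 0.056) or control array 2 (adjusted p = 0.070). In ES cells all 5 were below the median on every array and differed by -0.02 to 0.12, none of them called.

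Gata4, the zinc finger factor that pairs with Nkx2-5 and Tbx5 on heart promoters, rose by less than 2-fold. Probe set 1418863_at read 8.29 and 8.21 in differentiated cells with EBIO and 7.64 and 7.34 without. This was a rise of 0.76 ± 0.12 (SE; adjusted p = 0.0051, limma), which lost its call without EBIO array 1 (0.72, adjusted p = 0.051). The dimmer 1418864_at measured 6.22 and 6.14 with EBIO, against 5.48 and 5.51 without, and rose by 0.68 ± 0.09 (adjusted p = 0.0020). In ES cells both lay under the array medians, with differences of -0.14 and -0.13 (adjusted p = 0.42 and 0.47).

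Gata6, the related factor of heart and endoderm, was among the brightest probe sets of the differentiated arrays whether or not EBIO was present. Probe set 1425464_at read 11.78 and 11.81 with EBIO and 11.79 and 11.76 without, at the 97.8th and 97.7th percentile of its arrays. The 95% interval of the difference, -0.18 to 0.23, does not reach the 0.76 measured for Gata4. For 1425463_at, at 10.10 and 10.15 with EBIO and 10.28 and 10.25 without, the groups did not overlap. The difference of -0.14 was not called (adjusted p = 0.27, limma). The third probe set, 1443081_at, stayed under the array median everywhere, at no more than 4.19.

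In ES cells 1425464_at of Gata6 measured 4.73, 4.80 and 4.85 with EBIO, against 4.53, 4.35 and 4.12 in controls. Each EBIO array was above each control array, and above its own array median, which no control array exceeded. The rise of 0.46 ± 0.12 (SE) had an adjusted p of 0.032 (limma, n = 3 each). It was not called without control array 2 or any 1 EBIO array (adjusted p = 0.078 to 0.10), and the mean of the gene's probe sets rose by 0.15 only (adjusted p = 0.25). The other 2 probe sets of Gata6 differed by 0.11 and -0.11 and were not called.

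Tbx5, a T-box factor of atria, left ventricle and conduction system, rose strongly in differentiated cells. Probe set 1425695_at measured 10.44 and 10.33 with EBIO, against 7.51 and 7.15 without. The difference was 3.05 ± 0.14 (SE), 8.31-fold, with an adjusted p of 3.9e-05 (limma, n = 2 each). Probe set 1425694_at read 7.46 and 7.63 with EBIO, and 5.63 and 4.78 in controls that disagreed more than on any other member probe set (SD 0.60). Its rise was 2.34 ± 0.27 (adjusted p = 0.0012); the controls were under their medians, so it may be understated. In ES cells the differences were -0.23 and -0.08, neither of them called.

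Tbx20, a T-box factor of heart muscle, endocardium and valves, rose on all 3 probe sets in differentiated cells. Probe set 1453351_at measured 12.15 and 12.22 with EBIO, against 10.24 and 9.92 without. It rose by 2.10 ± 0.13 (SE; adjusted p = 0.00010, limma), 4.30-fold. Probe set 1425158_at read 9.17 and 9.20 with EBIO and 7.61 and 7.39 without, a rise of 1.69 ± 0.11. The dimmest, 1422219_a_at, read 7.60 and 7.70 with EBIO and 5.56 and 5.99 without, a rise of 1.87 ± 0.15. In all 3 the groups lay at least 1.56 apart.

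Tbx20 was also the member that moved most in ES cells. Probe set 1453351_at measured 4.59, 3.90 and 4.79 with EBIO, against 3.22, 3.36 and 3.59 in controls, 1.03 ± 0.23 (SE) higher (adjusted p = 0.019, limma, n = 3 each). EBIO arrays 1 and 3 exceeded their medians of 4.55 and 4.54, and no control array did. Probe set 1425158_at read 4.13, 4.09 and 4.14 with EBIO and 3.84, 3.82 and 3.81 in controls. This rise of 0.30 ± 0.08 had an adjusted p of 0.031. The third probe set differed by 0.03 (adjusted p = 0.89).

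The ES calls of Tbx20 were lost when single arrays were left out. Without any 1 of the 6 arrays 1425158_at was not called (adjusted p = 0.056 to 0.11). Probe set 1453351_at lost its call without control array 1 (adjusted p = 0.061), control array 2 (0.069), EBIO array 1 (0.075) or EBIO array 3 (0.056). The rise of 1453351_at stayed between 0.85 and 1.30 in these fits. Both probe sets moved within the dim range, at the 45.8th and 38.6th percentile with EBIO and the 10.7th and 26.8th percentile in controls.

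Hand1, a helix-loop-helix factor of the left ventricle and of trophoblast, was not called in either stage. Probe set 1417525_at read 6.96 and 6.60 in differentiated cells with EBIO, and 6.75 and 6.80 without, so that the controls lay inside the EBIO values. The difference of 0.00 had a 95% interval of -0.33 to 0.34. Probe set 1448750_at, built on the same sequence record, read 5.20 and 5.13 with EBIO and 4.93 and 4.97 without, all under the array medians. The difference of 0.21 missed the threshold (adjusted p = 0.11, limma).

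The same Hand1 probe set read lower in ES cells, at 5.34, 5.38 and 4.85 with EBIO and 5.92, 5.74 and 5.25 in controls. Within each passage the EBIO array was below its control, while the groups as wholes overlapped. The difference of -0.45 ± 0.21 was not called (adjusted p = 0.23), and passed once passage entered the fit as a replicate block (adjusted p = 0.012, limma). The 2 probe sets also rank the stages differently. 1448750_at stood at the 62.0th percentile with EBIO and the 67.6th without in ES cells, and at the 43.4th and 39.8th in differentiated cells. 1417525_at stood at the 52.7th and 55.0th in ES cells and at the 63.2nd and 62.3rd in differentiated cells.

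Hand2, a helix-loop-helix factor of the right ventricle, rose on all 3 probe sets in differentiated cells. The brightest, 1436041_at, measured 11.73 and 11.87 with EBIO, against 11.04 and 10.89 without, a rise of 0.83 ± 0.10 (SE; adjusted p = 0.0018, limma). Probe set 1422221_at read 7.37 and 7.57 with EBIO and 6.51 and 6.44 without, 0.99 ± 0.10 higher. Probe set 1443854_at read 6.10 and 6.33 with EBIO and 4.82 and 5.03 without, 1.28 ± 0.12 higher, from under the control medians. The groups did not overlap on any of them. In ES cells all 3 were below the array medians and differed by 0.05, -0.11 and -0.25. None was called; 1443854_at was called lower without control array 3 (-0.38, adjusted p = 0.032).

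**Figure D2:**
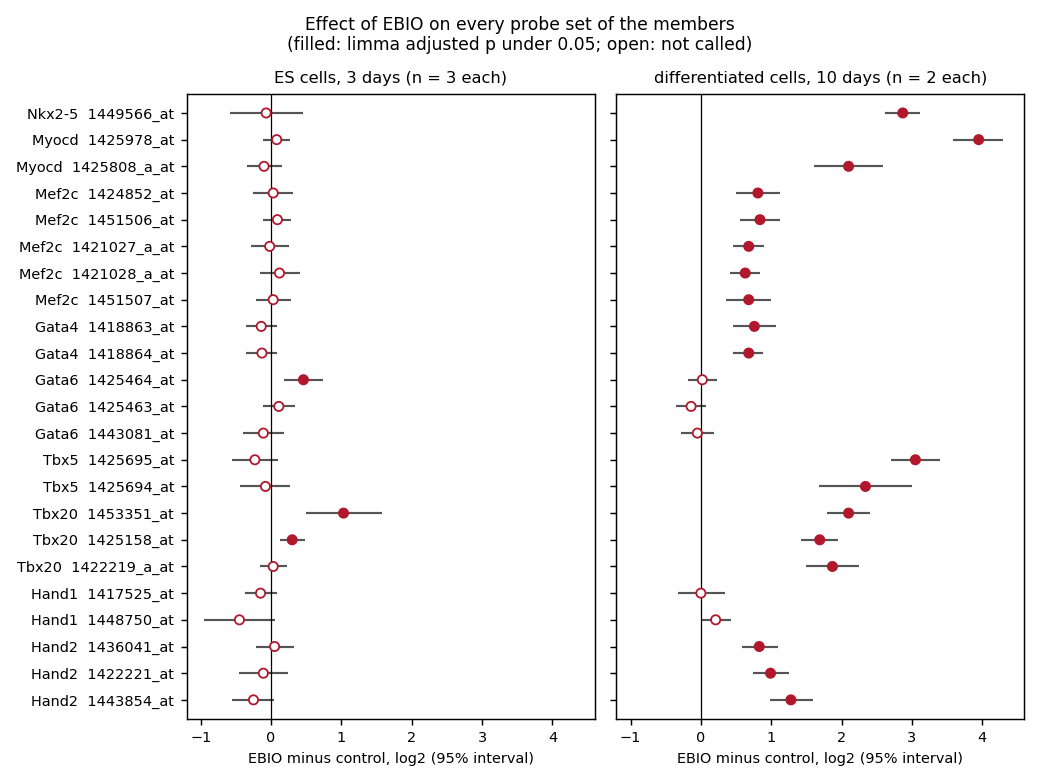
Difference between EBIO and control arrays on the log2 scale (horizontal axis) with its 95% interval, for each of the 23 probe sets, in ES cells (left) and in differentiated cells (right). Filled points passed an adjusted p under 0.05 in limma: 3 in ES cells and 18 in differentiated cells, where the probe sets of Gata6 and Hand1 are drawn as open points.

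Set side by side, the differentiated cells gave 18 of 23 probe sets higher and none lower in limma (18 at an unadjusted p under 0.05). At least 2-fold higher were 9 probe sets of 5 genes; over all probe sets 3.81% were called and at least 2-fold higher. The median difference was 0.83 for the member probe sets and 0.06 for all probe sets. Groups did not overlap on 20 of 23 member probe sets and on 67% of all probe sets, so that separation alone says little with 2 arrays a group. A filter at the array median kept 21 of the 23, of which 18 were higher, against 33.6% of all probe sets kept (a probe set could pass through its EBIO arrays alone); in ES cells it kept 7, of which 1 was higher, against 21.8%. In ES cells the member median was -0.02, against -0.03 for all probe sets, and groups did not overlap on 4 of 23, against 33.1%. There the 3 calls of 23 are close to the 10.9% of all probe sets called higher. The Actb 3′ minus 5′ probe difference, a measure of RNA integrity, was 0.08 to 0.20 with EBIO and 0.33 to 0.50 without in ES cells. The same difference for Gapdh was 0.01 to 0.04 with EBIO and -0.08 to 0.06 without, so those groups overlapped. The part of RNA integrity in the ES calls was not tested.

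The EBIO effect was larger in differentiated than in ES cells for 18 of the 23 probe sets, by the test of the difference itself on all 10 arrays (limma); over all probe sets 12.9% were called higher and 13.8% lower. The largest differences in effect were 3.86 ± 0.17 (SE) for Myocd, 3.29 ± 0.22 for Tbx5 and 2.94 ± 0.30 for Nkx2-5. For Gata4 it was 0.90 ± 0.16, for Hand2 0.78 ± 0.17 and for Mef2c 0.78 ± 0.19, each on the most intense probe set. The Mef2c call was lost without EBIO array 2 of the differentiated cells (0.62, adjusted p = 0.063). Tbx20 gave 1.07 ± 0.32 on 1453351_at (adjusted p = 0.032), the probe set that rose in ES cells too. That call was lost after quantile normalization of the 10 arrays together (0.76, adjusted p = 0.27) and without control array 2 of the ES cells or any 1 array of the differentiated cells (adjusted p = 0.051 to 0.14). For Gata6 1425464_at the difference in effect was -0.44 (adjusted p = 0.082), and it was called lower after quantile normalization (-0.62, adjusted p = 0.033) and without control array 1 of the ES cells (-0.54, adjusted p = 0.025). For Hand1 it was 0.15 on 1417525_at (adjusted p = 0.59) and 0.66 on 1448750_at (adjusted p = 0.12). Probe set 1448750_at was called with the replicate block (adjusted p = 0.0067) and without control array 3 of the ES cells (0.85, adjusted p = 0.014).

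Stage itself was described by rank only. Tbx20, Hand2, Mef2c and Gata4 ranked in the lower part of the untreated ES arrays, at the 10.7th, 17.9th, 35.6th and 43.3rd percentile of their most intense probe set. On the untreated differentiated arrays these probe sets stood at the 91.3rd, 95.5th, 79.4th and 68.9th percentile. Gata6 stood at the 43.6th and 97.7th percentile in the same order of stages. Nkx2-5 ranked at the 66.1st percentile in untreated ES cells and the 57.4th in untreated differentiated cells, and at the 84.4th with EBIO. Myocd stood at the 21.0th, the 53.5th and, with EBIO, the 89.9th percentile. Tbx5 stood at the 55.2nd, the 67.4th and, with EBIO, the 92.9th percentile, and Hand1 at the 55.0th, the 62.3rd and the 63.2nd. On these probe sets Nkx2-5, Myocd and Hand1 were nearest the middle of the untreated differentiated arrays, while Gata6, Hand2 and Tbx20 already ranked high. Tbx5, Gata4 and Mef2c lay between. The ranking depends on the probe set. On the same arrays Tbx20 1422219_a_at stood at the 51.3rd percentile, Hand2 1443854_at at the 39.5th and Myocd 1425808_a_at at the 35.5th. Gata6 1443081_at stood at the 26.2nd percentile, and Gata6 1425463_at at the 92.3rd.

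Genes that the members are known to switch on rose in differentiated cells too. Of 29 measured heart muscle target genes 23 rose and 2 fell, with a median of 3.09; over the most intense probe sets of all named genes 20.4% were higher and 21.9% lower. Nppa, the atrial natriuretic peptide gene, rose by 7.06, and Ttn, the gene of the giant sarcomere protein titin, by 5.10. Gja1, the gene of connexin 43, fell by 1.85, and Mb, which encodes myoglobin, by 1.11. In ES cells 3 of the 29 rose and 5 fell, against 14.6% and 13.6% of named genes. Tnnc1, the gene of cardiac troponin C, rose there by 1.35 and Nppb, a natriuretic peptide gene, by 1.16, while Ttn fell by 1.30 and Myl4, an atrial light chain gene, by 0.73. The list shares 8 genes with the cardiomyocyte markers.

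Among 12 cofactors and partners 10 rose in differentiated cells and 1 fell, against 20.4% and 21.9% of named genes. Prox1, a homeobox factor of heart muscle and lymphatic vessels, rose by 3.42 ± 0.14 (SE), to 7.71 with EBIO against 4.29 without. Hopx, a homeodomain protein that restrains serum response factor, rose by 2.98 ± 0.12. Srf itself rose by 1.87 ± 0.09. Hey1, a Notch effector, fell by 0.48. In ES cells 5 of the 12 rose and 3 fell, against 14.6% and 13.6% of named genes. Srf rose by 1.67 and Zfpm1, a Gata cofactor, by 1.70, whereas Jarid2 (-1.69), a chromatin factor, and Smarcd3 (-1.06), the heart subunit of a remodelling complex, fell.

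The paralogues of the members moved apart. In differentiated cells 6 of 15 rose and 2 fell, against 20.4% and 21.9% of named genes. Tbx3, a T-box repressor of the conduction system, rose by 2.88 and Tbx2, its close relative, by 1.23. Gata5, a factor of endocardium and endoderm, fell by 1.68 ± 0.09, to 5.35 with EBIO against 7.03 without, and Tbx1 fell by 0.35. Of the 3 GATA genes of the heart, Gata4 thus rose, Gata5 fell and Gata6 was not called. In ES cells 4 rose and 2 fell, against 14.6% and 13.6% of named genes. Gata3, a trophoblast and lymphoid factor, rose by 3.36 and Mef2a by 1.11, whereas Tbx3 fell by 1.35 and Mef2b by 1.23. Mef2a rose by 1.04 in differentiated cells as well.

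Of 16 measured genes of cardiac mesoderm and heart fields 3 rose and 7 fell in differentiated cells. Of all named genes 20.4% rose and 21.9% fell there, so the 3 rises are close to the general share. Isl1, a factor of the second heart field and sinus node, rose by 3.43 and Fgf10, a growth factor of the second heart field, by 2.13. Pdgfra, a receptor of mesoderm and fibroblasts, fell by 4.29, and Fgf8, a growth factor of heart field cells, fell by 2.74. The early mesoderm genes Mesp1 and Eomes read 5.69 and 5.05 with EBIO, against 5.59 and 4.95 without, near or under the array medians. In ES cells none of the 16 rose and 3 fell, against 14.6% and 13.6% of named genes. Those that fell included Foxh1 (-0.99), a partner of Nodal signalling, and Hhex (-0.80). The median difference of this list was 0.01 in differentiated cells and -0.10 in ES cells.

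Markers of other cells that make some of the members moved as well. In differentiated cells all 8 epicardial and mesothelial markers fell, as did all 8 macrophage, all 8 fibroblast and 7 of 8 endothelial markers. Over all named genes 21.9% fell. The mean log2 level of the epicardial list was 6.68 to 6.82 with EBIO and 10.82 to 10.91 without. It was 7.12 to 7.18 and 11.91 to 11.93 for fibroblasts, 4.37 to 4.39 and 10.74 to 10.99 for macrophages, and 4.54 to 4.62 and 7.0 to 7.02 for endothelium. Of the macrophage markers none exceeded the median of both EBIO arrays. Of 11 endoderm and liver markers 8 fell, at a mean level of 5.82 to 5.84 with EBIO and 7.60 to 7.83 without.

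In differentiated cells 20.4% of named genes rose and 21.9% fell. Of 8 smooth muscle markers 4 rose and 2 fell there, with a list mean of 8.87 to 8.92 with EBIO and 8.84 to 8.91 without. Single genes of this list moved in opposite directions. Cnn1, the calponin gene, rose by 2.33, whereas Mylk, the myosin light chain kinase gene, fell by 3.12. Of 8 skeletal muscle markers 2 rose, and the skeletal regulators Myod1 and Myog read 4.42 and 4.36 with EBIO, against 4.34 and 4.50 without. Of 8 trophoblast markers 4 fell, at means of 6.18 to 6.21 and 6.66 to 6.72. Of 6 sympathetic and neural crest markers 1 fell, at 5.20 with EBIO and 5.19 to 5.27 without. The part of these cell types in the values of Mef2c, Gata4, Gata6, Tbx20, Hand1 and Hand2 was not tested. In ES cells 14.6% of named genes rose and 13.6% fell. All 8 pluripotency markers fell there, while 3 of 8 smooth muscle markers rose and 1 fell. In the same cells 1 of 11 endoderm markers rose and 1 fell, 2 of 8 trophoblast markers rose and 2 fell, and 2 of 8 epicardial markers rose. Of 8 cardiomyocyte markers 1 rose and 4 fell, of 8 endothelial markers 1 rose and 2 fell, and no fibroblast marker was called. Their part in the ES values of Gata6, Tbx20 and Hand1 was not tested.

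**Figure D3:**
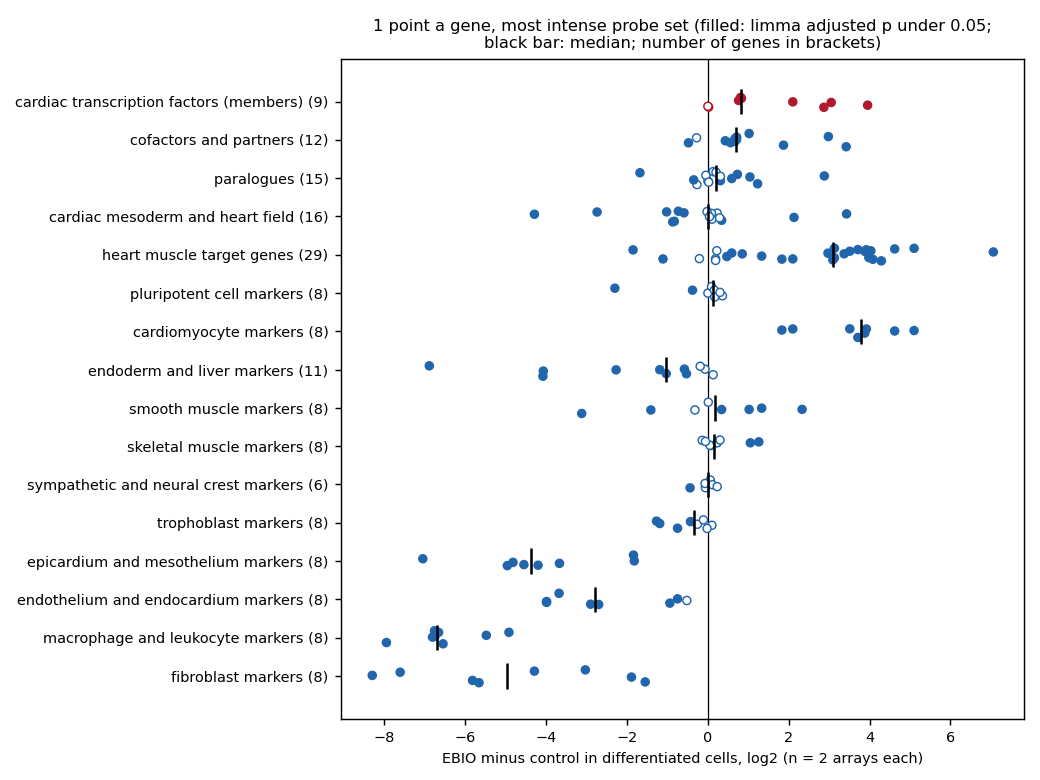
Difference between EBIO and control arrays of differentiated cells on the log2 scale (horizontal axis), 1 point a gene, for the 9 members at the top and for each gene list below. Filled points passed an adjusted p under 0.05 in limma and black bars are medians; the members with the largest rises lie in the range of the cardiomyocyte markers, while fibroblast, macrophage and epicardial markers lie below 0.

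The sizes of the members' rises spread over the range between these lists. Nkx2-5, Tbx5 and Myocd, at 2.87, 3.05 and 3.95 on their most intense probe sets, lay within the range of the 8 cardiomyocyte markers, which was 1.83 for Actc1 to 5.10 for Ttn, with a median of 3.80. Tbx20, at 2.10, equalled Myl7. Gata4, Mef2c and Hand2, at 0.76 to 0.83, and Gata6 and Hand1, at 0.02 and 0.00, lay below all 8. This is a description, and the difference between members was not tested. The part of the number of heart muscle cells in these rises was not tested either.

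The genes whose pattern over the 10 arrays was most like a member's were found among 18184 genes. Likeness was the Euclidean distance between log2 values after subtracting the mean of the untreated arrays of the stage. Nkx2-5 was closest to Fsd2 (0.47), Jph2 (0.54), a junctional membrane protein gene of heart muscle, and Lrrc39 (0.56). Myocd was closest to Mlip (0.36), Popdc2 (0.42) and Sorbs2 (0.43). Tbx5 was closest to Slc8a1 (0.42), the sodium-calcium exchanger gene, Usp13 (0.44) and Jph2 (0.45). Tbx20 was closest to Phtf2 (0.71), Actc1 (0.77), the cardiac actin gene, and Lypd6 (0.78).

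The members with small or no changes had neighbours at smaller distances. Mef2c was nearest to Cry2 (0.24), Usp29 (0.25) and Tsc2 (0.28), and Hand2 to Entpd6 (0.18), Usp29 (0.19) and Gpr137c (0.21). Gata4 was nearest to Ncan (0.18), Tafa5 (0.21) and Sdk2 (0.27), and Gata6 to Sec24c (0.15), Osbp (0.22) and Zfp61 (0.23). Hand1 was nearest to Dbpht2 (0.12), Alppl2 (0.18) and Dnase2b (0.18). In differentiated cells Dbpht2 averaged 2.67 with EBIO and 2.66 without, and Dnase2b 2.99 and 3.01, far under the array medians. Alppl2 averaged 6.12 and 6.16. The distance takes no account of level, so a dim probe set that does not change can be near. Jph2 stands near both Nkx2-5 and Tbx5, and Usp29 near both Mef2c and Hand2.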

How the data were processed

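Total RNA of 10 cultures was labelled with biotin and hybridised to Affymetrix arrays, per the labels' protocols. Per the submitters' processing notes, the authors computed the deposited log2 values with RMA, whose version the sources used here do not give. ES and differentiated arrays appear to have been normalized separately, judged from the values: sorted values differed by at most 0.0931 on average within a stage and by at least 0.908 between stages. The table held 45101 probe sets, of which 64 controls were left out. Symbols came from the platform annotation, updated through a RefSeq gene table of GRCm38.p6 (34741 of 34945 single-symbol probe sets matched by gene ID).

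Tests used limma 3.58.1 in R 4.3.3 (two-sided, Benjamini-Hochberg over 45037 probe sets, threshold 0.05), with no filter on dim probe sets. Each stage was fitted alone, and the difference between stages on all 10. A gene of a list stands by its most intense probe set (highest mean over the 10 arrays). The named genes were all members, 3 genes nearest to each, and per list up to 2 called genes with the largest change in each direction and stage; Srf and Mef2a in differentiated cells, Mesp1, Eomes, Myod1, Myog, Actc1, Myl7, Cnn1 and Mylk were named outside this rule after their values were seen. Some genes of the lists are not reported here. Members and lists were chosen with earlier results of these data known.

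The design text calls the samples of a group independent experiments. ES replicate numbers pair samples by passage, so the replicate block was run beside the planned fit without it. Correlations of deviations within a passage were 0.35, 0.23 and 0.62. Between different passages they ran from -0.51 to 0.26, and EBIO array 2 gave 0.26 with control array 1 and 0.23 with its own control. In differentiated cells same numbers gave -0.09 and -0.09, and samples share only a number. Other alternatives were the filter on dim probe sets, 1 value a gene, scaling, an intensity trend, a joint fit and leaving out each array. Precision is limited by the small number of arrays. The fits were tested on simulated data.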

Additional observations from a re-analysis of the deposited data

Results flagged for a closer look

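The EBIO effect differed between the stages, by the test of the difference itself in limma, for 18 of the 23 member probe sets. Over all 45037 probe sets this test called 12.9% higher and 13.8% lower. Differences are the effect in differentiated cells minus that in ES cells on the log2 scale. Myocd gave 3.86 and 2.20, Tbx5 3.29 and 2.42, Nkx2-5 2.94 and Tbx20 1.07, 1.39 and 1.85. Hand2 gave 0.78, 1.10 and 1.54, and Gata4 0.90 and 0.81. The 5 probe sets of Mef2c gave 0.78, 0.75, 0.70, 0.51 and 0.65, of which 0.51 (1421028_a_at) was at the threshold (adjusted p = 0.0499) and was not called without any 1 of 9 of the 10 arrays. In differentiated cells, leaving out control array 1 (adjusted p = 0.057), control array 2 (0.079) or EBIO array 2 (0.10) ended the call of 1451507_at (0.65). Leaving out EBIO array 2 also ended that of 1424852_at (adjusted p = 0.063). The probe set order within a gene is by falling mean intensity.

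The same test passed for 20 genes named by the list rule, with adjusted p up to 0.022 in limma. Over all probe sets it called 12.9% higher and 13.8% lower. Srf, Hey1, Mef2a, Tbx1, Foxh1, Hhex and Mb, also named by the list rule, did not pass. That rule took genes with a large change in 1 stage of these same data, which favours passing a test between stages. Genes named otherwise passed as well, among them Slc8a1 (3.23), Myl7 (2.57), Actc1 (0.89), Cnn1 (0.72) and Mylk (-3.29). Mesp1, Eomes, Myod1 and Myog, also named otherwise, did not pass. Among the 20 the effect was more positive in differentiated cells for Nppa (7.01), Ttn (6.40), Tbx3 (4.23), Myl4 (3.70), Isl1 (3.67), Hopx (3.19), Prox1 (3.04) and Nppb (2.82). This also held for Jarid2 (2.40), Fgf10 (2.18), Smarcd3 (2.08), Tnnc1 (2.03), Mef2b (1.82) and Tbx2 (1.21). It was more negative for Pdgfra (-4.52), Gata3 (-3.05), Fgf8 (-2.48), Gja1 (-1.68), Gata5 (-1.65) and Zfpm1 (-1.27).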

How the results depend on the processing

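With 2 arrays a group in differentiated cells, the 18 member probe sets called higher ranged from 17 to 18 when 1 array was left out, with 0 called lower throughout. Over all probe sets 15736 calls became 9746 to 11394. In ES cells the 3 member probe sets called higher became 0 to 2, and those called lower 0 to 2, when 1 array was left out (all probe sets 6724 to 10098); both lower calls came without control array 3 (Hand1 1448750_at, -0.64, and Hand2 1443854_at, -0.38). For the difference between the stages 14 to 18 were higher and 0 to 1 lower (all probe sets 9320 to 13929); the 1 lower was Gata6 1425464_at without control array 1 of the ES cells. With each array centred on its median Hand1 1448750_at was called higher in differentiated cells (0.28, adjusted p = 0.048). The replicate block gave 1 member lower in ES cells (Hand1 1448750_at), and called it between the stages too (0.66, adjusted p = 0.0067); no other member call changed with it. A filter at the array median left 7 member probe sets in ES cells, of which 1 was called higher. With 1 probe set a gene or the mean of its probe sets, which test fewer features, 7 and 7 of 9 member genes were higher in differentiated cells, 7 and 7 between the stages, and in ES cells 1 was higher with the mean. All calls were then 8382 and 8358 in differentiated cells, 6564 and 6654 between the stages, and 5502 and 5377 in ES cells. Quantile normalization of all 10 arrays left 15 members higher between the stages, with Tbx20 1453351_at and Mef2c 1421028_a_at (0.44, adjusted p = 0.17) and 1451507_at (0.60, adjusted p = 0.051) no longer called. It gave 1 lower (Gata6 1425464_at, -0.62); the cause was not tested. No called member value reversed its sign under the alternatives run.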
